A study of Mus musculus with 6 samples.

Results

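ATP-dependent chromatin remodelling complexes use the energy of ATP to slide, evict or exchange nucleosomes, the units of DNA wrapped around histones. Their subunits were chosen by gene symbol, with earlier results of these data known. All Smarc genes, the Chd genes and a list of named partners gave 51 genes of the 14681 in the authors' deposited table. All 51 carried both a p and an adjusted p in that table, so the filter on low counts removed 0 of them. Dpf3 and Phf10, also named by the choice, are not analysed here.

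The table compares dorsal pancreas of Dpy30∆P knockout embryos (3 samples) with that of control embryos (3 samples), all C57BL/6 mice at embryonic day 18.5. Dpy30 is a core subunit of the Trithorax group complexes that methylate lysine 4 of histone H3, and the series title places its loss in the pancreas. The name under which the table was deposited refers to a Pdx1 knockout, whereas the series title and sample labels name Dpy30, and the sources used here do not resolve this. They do not state which promoter drives the deletion or the genotype of the controls. Bulk tissue also holds cells outside the pancreatic epithelium, and fewer cells of a type and less RNA per cell cannot be told apart.

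Remodellers fall into families by their motor subunit. SWI/SNF complexes (called BAF, PBAF or ncBAF by their accessory subunits) open chromatin, and the fly motor Brahma was found as a Trithorax group protein. ISWI complexes space nucleosomes, the CHD proteins include the motors of the NuRD deacetylase complex, and INO80-type complexes exchange histone variants. Several members read the mark that Dpy30 complexes place: Bptf, the large subunit of the ISWI complex NURF, and Chd1 (shown for the human protein) bind methylated lysine 4 of histone H3. In mouse pancreas, Smarca4 acts in organ growth and Chd4 has been tied to insulin secretion.

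Which group is the numerator of the deposited fold changes is not stated. A positive value is read here as higher in the knockout; with the opposite numerator, all directions would be reversed. The level of Dpy30 itself decided neither this nor which gene was deleted. Its mean normalized count was 29.4, and the authors' deposited table gave it a log2 fold change of 0.01 ± 0.22 (posterior SD; DESeq2 adjusted p = 1.00). Pdx1, the transcription factor that specifies the pancreas, had a mean of 52.7 normalized counts and a reconstructed log2 fold change of -0.89 ± 1.10 (SE), so it did not decide it either. The table gives 1 mean over all libraries per gene, so no value per sample, no group mean and no depth per library can be given. Over all genes, 90 of 12108 were called at an adjusted p under 0.05 in the authors' deposited table, 58 lower and 32 higher. Fold changes given as reconstructed are unshrunken values recovered from the deposited fold change and its error, on the log2 scale, with their standard error (SE).

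Methylation of histone H3 lysine 4 gathers at promoters rich in CpG, the dinucleotide CG. The promoters of the alternative ISWI motors Smarca1 and Smarca5 are shown because they differ in CpG content; that of Smarca1 is among the poorest in CpG of the members. The sequences are the 250 bases before the RefSeq start of each gene (GRCm38.p6, minus strand, 5′ to 3′), at chrX:47892614-47892863 for Smarca1 and chr8:80739460-80739709 for Smarca5, with each CpG in capitals.
Smarca1: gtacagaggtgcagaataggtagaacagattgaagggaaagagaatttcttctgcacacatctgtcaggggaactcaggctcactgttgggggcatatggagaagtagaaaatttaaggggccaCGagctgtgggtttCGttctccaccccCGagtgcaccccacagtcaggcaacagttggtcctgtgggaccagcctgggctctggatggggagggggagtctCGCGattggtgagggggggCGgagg
Smarca5: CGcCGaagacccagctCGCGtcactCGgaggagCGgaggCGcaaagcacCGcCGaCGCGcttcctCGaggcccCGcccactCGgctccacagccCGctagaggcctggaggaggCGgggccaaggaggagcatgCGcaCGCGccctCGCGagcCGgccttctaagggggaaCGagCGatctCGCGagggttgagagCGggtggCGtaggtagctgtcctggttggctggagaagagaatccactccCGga
The Smarca1 stretch holds 6 CpG and that of Smarca5 holds 29, taking the start with the most CpG of each gene. The 40 of 51 members with a promoter in the reference held 4 to 40 CpG, with a median of 21.5, and the 11547 of 14681 genes of the table with one had a median of 15. Both sets are covered for less than 80% of their genes, so a comparison of the members with all genes is void.

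None of the 51 subunits passed the authors' test. In the authors' deposited table, 0 of 51 were called at an adjusted p under 0.05, where 0.743% of all tested genes were. At an adjusted p under 0.1 the count was also 0, beside 1.07% of all tested genes, and the smallest adjusted p was 0.810, for Smarcd3. By unadjusted p, 0 of 51 members were lower and 0 higher at the 0.05 level of the authors' DESeq2 results, beside 5.39% of all genes (2.7% in each direction) and 5.91% of the 11241 genes within the members' range of mean counts. The median unadjusted p was 0.582 for the members and 0.513 for all genes in the authors' deposited table. For the genes within the members' range of mean counts, the median DESeq2 p was 0.553. Members at an unadjusted p under 0.1 numbered 2, Smarcd3 and Chd6, beside 9.43% of all genes.

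**Figure D1:**
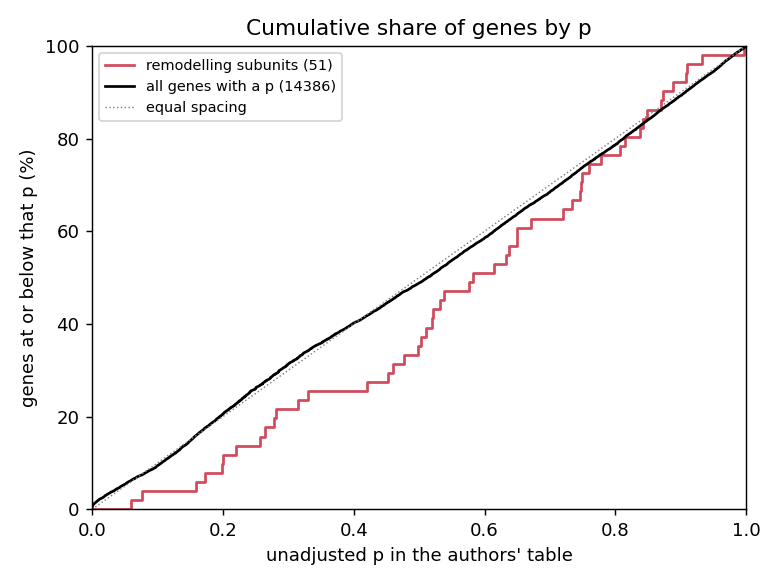
Cumulative share of genes (y axis, percent) at or below each unadjusted p of the authors' table (x axis), for the 51 remodelling subunits (red) and all 14386 genes with a p (black); the dotted line marks equal spacing. The red line starts at 0.0593, the smallest p of a member, and its median lies at 0.582.

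Reconstructed values lay on both sides of 0. They were positive for 30 members and negative for 21, while 54.8% of all genes with a p were positive. Of the members, 44 had an SE of at most 1 and are called well determined. Their median was 0.07, with quartiles of -0.30 and 0.28, beside a median of -0.04 over 5710 well determined genes of the table. The median size without sign was 0.29 for these members and 0.37 for all well determined genes. Their median SE also differed, at 0.54 and 0.64, and the sizes were not adjusted for it. Each of the 51 intervals at the 95% level included 0.

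The tissue itself differed in its cell markers, and the centre chosen for the fold changes matters for this reason. Of 5 acinar markers in the table, 3 were called lower and 0 higher in the authors' deposited table, with mean counts from 7.23 to 161670. Of 13 pan-epithelial markers, 1, Krt18, was called lower, and the weighted mean of 10 well determined ones was -0.65 ± 0.20 (SE over genes). Krt18 had the largest weight in that mean, at -1.23 ± 0.28 (SE). The others ran from -1.69 ± 0.80 for Ap1m2 to 0.03 ± 0.69 for St14. Of 8 mesenchymal markers, the authors' deposited table called 0, and its unadjusted p was under 0.05 for 4, all higher. Of 5 pan-endocrine markers in the table, 2 were called lower, and the weighted mean of the 3 well determined ones was -2.47. All 4 liver markers had positive values, 3 of them with an unadjusted p under 0.05 and 0 called. Of 3 erythroid markers in the table, 1, Gata1, was called higher. Taken relative to the pan-epithelial genes, which adds 0.65 to every gene, 49 members lay above 0 and 2 below. That was 96.1% of members above 0, beside 79.8% of all genes. At the two-sided 5% level, 0 members were lower and 10 higher. Of the 13059 genes with a reconstructed value, 7.56% were higher and 0.544% lower by the same measure, and 7.83% of those in the members' range of mean counts were higher. All 10 were among the 44 well determined members (22.7%), beside 15% of all 5710 well determined genes. Whether the members differ from other genes in this was not tested. The 10 were Smarca2, Smarcd2, Arid1a, Smarca1, Baz1b, Baz2b, Bptf, Chd6, Mbd3 and Mta2. How far this list depends on Krt18 was not tested. The part of cell makeup in these values was not tested.

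**Figure D2:**
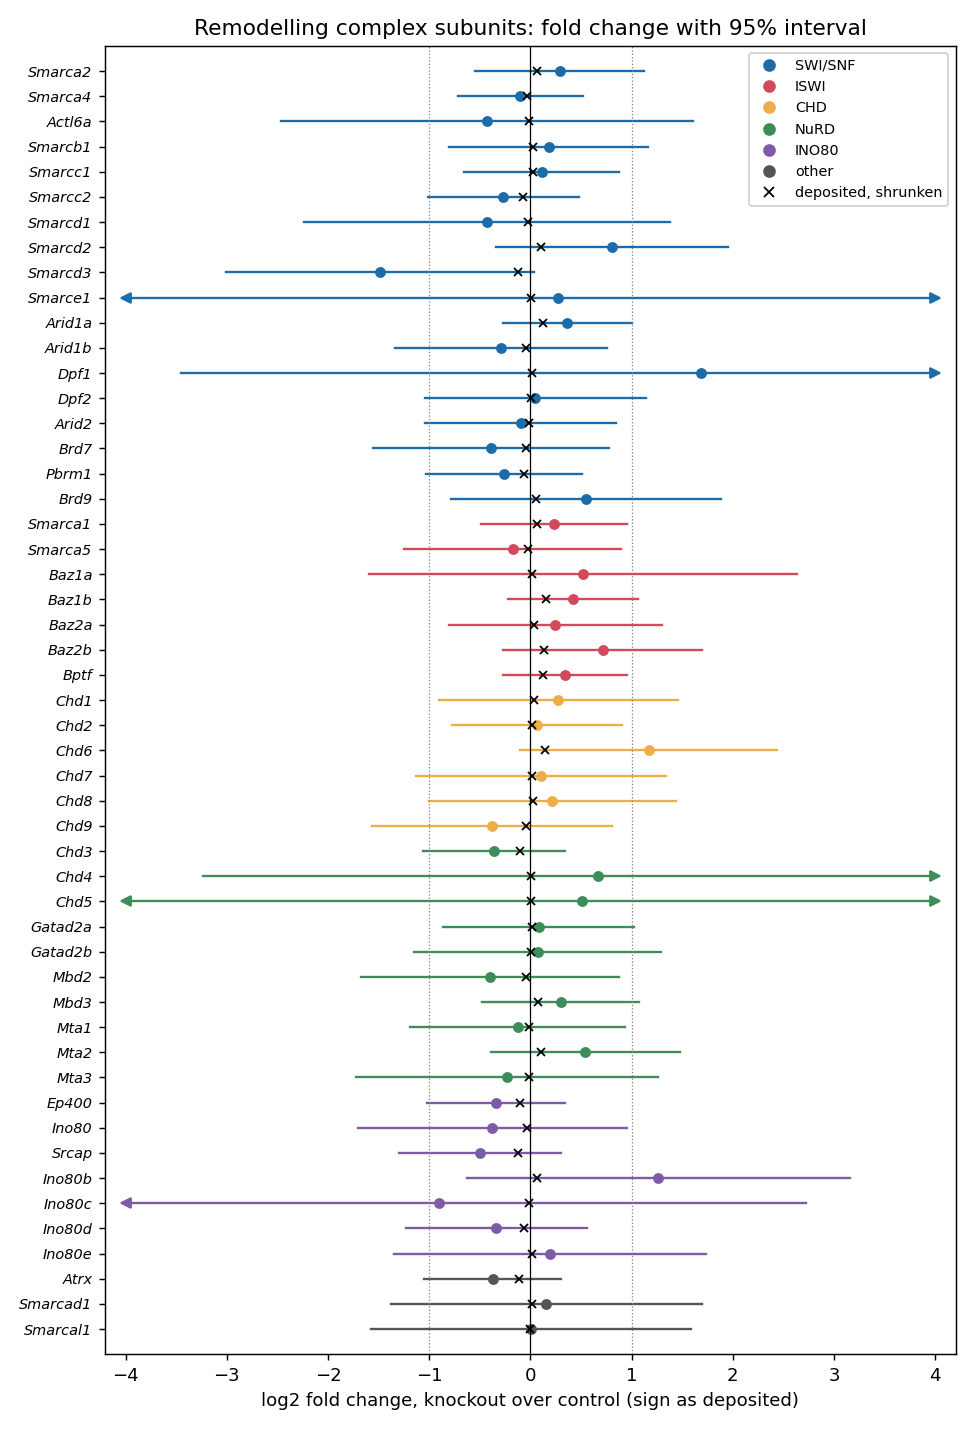
Log2 fold change (x axis, knockout over control, sign as deposited) of the 51 subunits, coloured by complex. Circles are reconstructed values with 95% intervals, arrows mark intervals that run past the axis, crosses are the authors' deposited shrunken values and dotted lines mark a 2-fold change; all 51 intervals cross 0.

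How large a change could have been seen differed between members. An interval within a 2-fold change either way was reached by 6 of 51: Smarca4, Smarcc1, Arid1a, Smarca1, Bptf and Chd2. An interval within a 4-fold change was reached by 40, and the other 11 left larger changes possible. The largest p called in the authors' deposited table was 0.000347, which corresponds to 3.58 SE. By that measure, 0 of 51 members could have been called at an observed 2-fold change, 26 at a 4-fold change and 42 at an 8-fold change. The smallest observed fold that could have been called was 2.17, for Bptf, and the median over members was 3.97. Smaller observed changes would have missed the threshold at the SE of each member.

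Neither SWI/SNF motor passed the test. Smarca4 and Smarca2 are alternative ATPases, and a complex holds either. For Smarca4 (Entrez gene 20586; chromosome 9, 21616106 to 21704230, GRCm38), the mean count was 1106, with a reconstructed log2 fold change of -0.10 ± 0.32 (unadjusted p = 0.749 in the authors' deposited table). Its 95% interval, as a ratio of knockout to control, ran from 0.607 to 1.43. Smarca2 had a reconstructed value of 0.29 ± 0.43 (unadjusted p = 0.499 in the authors' deposited table). The motors thus lay on opposite sides of 0, each by less than its error.

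The shared core of SWI/SNF was split evenly, with 4 of 8 members positive and 4 negative. Smarcb1, the core subunit lost in rhabdoid tumours, had a reconstructed value of 0.18 ± 0.50 (SE). The scaffold proteins Smarcc1 and Smarcc2 were at 0.11 ± 0.39 and -0.27 ± 0.38. Smarcd3, a muscle-associated subunit of the Smarcd trio, had the smallest p of all members (Entrez gene 66993; chromosome 5, 24592622 to 24624456, GRCm38). Its mean count was 133, its fold change in the authors' deposited table was -0.13 ± 0.26 (posterior SD) and its reconstructed value was -1.48 ± 0.78 (SE; unadjusted p = 0.0593). The ratio of knockout to control was 0.358, with an interval from 0.124 to 1.03. Its paralog Smarcd2, known for its part in granulocyte formation, was at 0.80 ± 0.59 (unadjusted p = 0.172 in the authors' deposited table), and Smarcd1 at -0.43 ± 0.92. The Smarcd paralogs therefore differed in sign, while each interval included 0, and the difference between them was not tested.

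Subunits that set the type of SWI/SNF complex showed no call either. Arid1a, the DNA-binding subunit of BAF that is often mutated in cancer, had a reconstructed value of 0.36 ± 0.32, and its interval ended just inside a 2-fold change. Arid1b, its alternative, was at -0.29 ± 0.53, and Dpf2, a histone-reading BAF subunit, at 0.05 ± 0.56. All 3 PBAF subunits were below 0: Arid2 at -0.10 ± 0.48, the polybromo protein Pbrm1 at -0.26 ± 0.39 and the bromodomain protein Brd7 at -0.39 ± 0.59. Their unadjusted p ran from 0.502 to 0.838 in the authors' deposited table, where 54.8% of all genes with a p were positive. Brd9, which marks ncBAF, was at 0.55 ± 0.68.

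ISWI genes lay mostly above 0, in 6 of 7 cases, beside 54.8% of all genes with a p, and 0 passed the test. The motors Smarca1 and Smarca5, whose promoters are shown above, had reconstructed values of 0.24 ± 0.37 and -0.17 ± 0.55. All 5 partner subunits were positive, with a median of 0.38 over the 4 well determined ones, beside -0.04 over all well determined genes. Whether the partners differ from other genes was not tested. Bptf, the reader of methylated histone H3, had a mean count of 945 and a reconstructed value of 0.34 ± 0.31 (unadjusted p = 0.278 in the authors' deposited table). This was the smallest SE among the members, and its interval as a ratio ran from 0.828 to 1.94. Baz1b, which pairs with Smarca5 at replicating DNA, was at 0.42 ± 0.33 (unadjusted p = 0.200), and Baz2b at 0.71 ± 0.50 (unadjusted p = 0.159), both p from the authors' deposited table. Baz2a, which helps silence ribosomal genes, was at 0.25 ± 0.54, and Baz1a at 0.52 ± 1.08.

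CHD motors outside NuRD were positive in 5 of 6 cases, beside 54.8% of all genes with a p. At a locus on chromosome 2 (160946978 to 161109086, GRCm38), Chd6 (Entrez gene 71389) had the second smallest p of the members, with a mean count of 505. In the authors' deposited table its fold change was 0.14 ± 0.27 (posterior SD; adjusted p = 0.875, DESeq2), and its reconstructed value was 1.17 ± 0.65 (SE; unadjusted p = 0.0764). The ratio of knockout to control was 2.25, with an interval from 0.933 to 5.41. The reader Chd1 was at 0.28 ± 0.60 and Chd2, its closest relative, at 0.06 ± 0.43. Chd7, mutated in human CHARGE syndrome, was at 0.10 ± 0.63, Chd8 at 0.21 ± 0.62 and Chd9 at -0.37 ± 0.60.

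The NuRD complex joins a CHD motor with histone deacetylases. Its motor Chd3 had a reconstructed value of -0.36 ± 0.36 (unadjusted p = 0.315 in the authors' deposited table). Chd4 (Entrez gene 107932) lies on chromosome 6, 125095980 to 125130591 (GRCm38). Its mean count was 529, yet its reconstructed value was 0.66 ± 1.99, with an interval as a ratio from 0.106 to 23.6. The data on Chd4 were almost without weight: its posterior SD in the authors' deposited table was 0.218, and the prior alone would give 0.219. Chd5, a mainly neuronal motor, had the lowest mean count of the members, 11.5, and a value of 0.51 ± 2.70. Among the other NuRD subunits, Mta2 had the smallest p, at 0.54 ± 0.48 (unadjusted p = 0.257 in the authors' deposited table). The methyl-CpG binding protein Mbd2 and its relative Mbd3 were at -0.40 ± 0.65 and 0.30 ± 0.40. Mta1 at -0.13 ± 0.54, Mta3 at -0.23 ± 0.76, and the paralogs Gatad2a at 0.08 ± 0.48 and Gatad2b at 0.07 ± 0.62 were closer to 0.

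The motors of the INO80 type were all below 0 and none passed, while 54.8% of all genes with a p were positive. Whether they differ from other genes was not tested. Srcap, which loads the histone variant H2A.Z, had the highest mean count of the members, 1214, and a reconstructed value of -0.50 ± 0.41 (unadjusted p = 0.219 in the authors' deposited table). Ep400, the motor of the TIP60 acetyltransferase complex, was at -0.34 ± 0.35 and Ino80 at -0.38 ± 0.68. The smallest p of this group belonged to Ino80b, a small INO80 subunit, at 1.26 ± 0.97 (unadjusted p = 0.198 in the authors' deposited table). Ino80d was at -0.34 ± 0.46 and Ino80e at 0.20 ± 0.79. Among the remaining motors, Atrx, which deposits histone H3 variants at repeats, was at -0.37 ± 0.35, with an interval as a ratio from 0.482 to 1.24. Smarcad1 and Smarcal1, which act at breaks and stalled replication forks, were at 0.16 ± 0.78 and 0.00 ± 0.81.

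Precision followed the mean count, with Chd4 apart. Members had an SE close to that of other genes of like mean (within a factor of 1.2), with a median ratio of 0.965. Chd4 was the single member above a ratio of 1.5, at 4.44: its SE of 1.99 compared with a median of 0.45 over 507 genes of like mean, and 1 of those 507 had an SE at least as large. The 6 CHD motors outside NuRD also had an SE above the median of like genes, by a ratio from 1.00 for Chd2 to 1.42 for Chd6. The members with few counts, Chd5, Dpf1, Smarce1 and Ino80c, had an SE from 1.85 to 2.70.

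**Figure D3:**
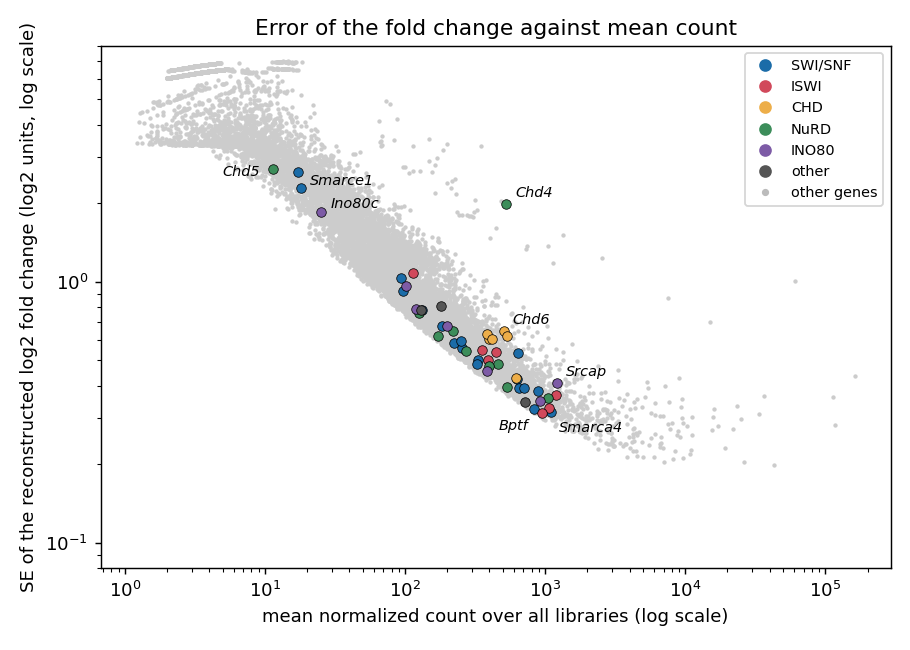
SE of the reconstructed log2 fold change (y axis, log scale) against mean normalized count (x axis, log scale) for the 51 subunits, coloured by complex, and other genes whose value could be reconstructed (grey). Chd4 stands above the band at an SE of 1.99, while Bptf is lowest of the members at 0.31.

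Mean levels over all libraries are set side by side for alternative subunits. The labels do not state whether a value covers all transcripts of a gene, so the shares may rank transcripts and not genes. Levels are normalized counts per kb of mRNA, using the GENCODE transcript with the longest coding sequence, and carry no error because the table holds 1 mean per gene. The highest level was that of Mbd3, at 322 per kb, and the lowest that of Chd5, at 1.21 per kb, around a median of 69.1. Between the SWI/SNF motors, Smarca4 made up 61.7% of the level and Smarca2 38.3%. Of the ARID subunits, Arid1a made up 44.6%, Arid1b 38.4% and the PBAF subunit Arid2 17.0%. In the Smarcd trio, Smarcd2 held 43.4%, Smarcd3 40.9% and Smarcd1 15.7%.

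Some other families were more one-sided. Smarca1 made up 83.8% of the ISWI motor level and Smarca5 16.2%, and Baz1b made up 89.9% of the Baz1 pair. In NuRD, Chd3 held 63.8% of the motor level, Chd4 35.7% and Chd5 0.533%, and Mbd3 held 74.1% of its pair. The Mta trio was more even, led by Mta2 at 44.7%, with Mta1 at 33.9% and Mta3 at 21.4%. Baz2a made up 52.1% of the Baz2 pair, Chd2 57.9% of its pair with Chd1, and Chd8 34.1% of Chd6 to Chd9. Srcap made up 49.1% of the INO80-type motors, Ep400 37.4% and Ino80 13.5%. Gatad2a was at 83.9% of its pair by mRNA length, but at 71.6% by coding length. The leading paralog was the same by mRNA length, by coding length and with no length in all 14 families compared. Shares that involve Arid2, Smarca5, Baz1a, Chd2 or Srcap are uncertain, because exons of these genes overlap another gene on the same strand.

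**Figure D4:**
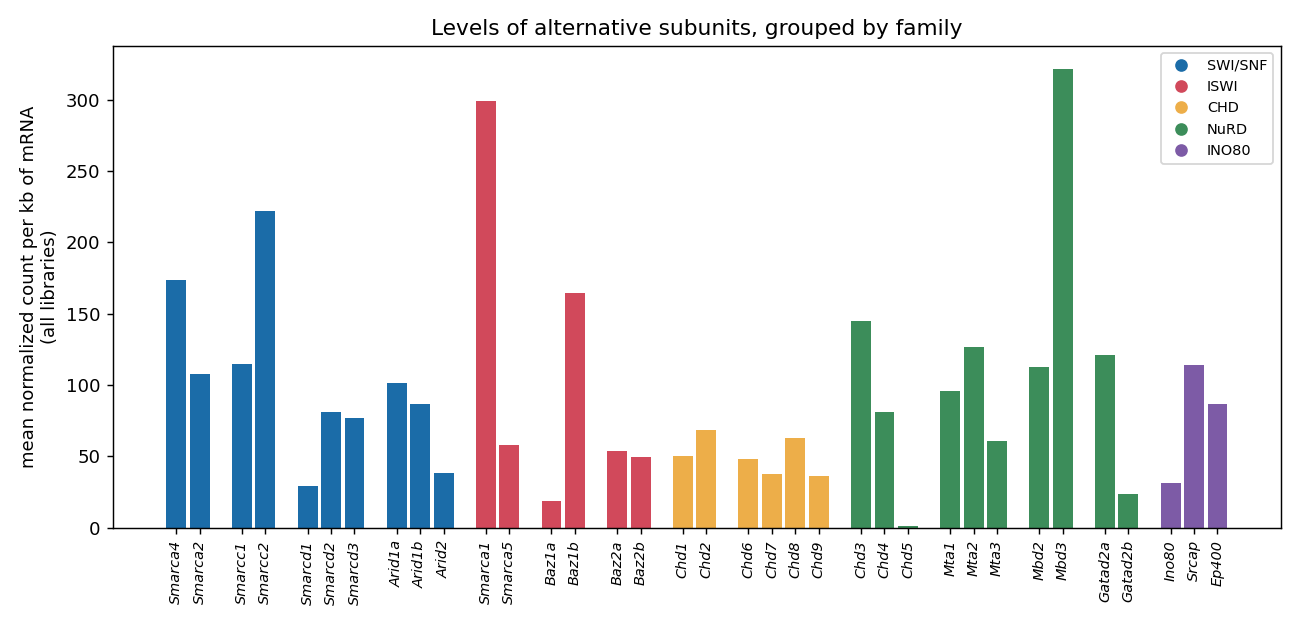
Mean normalized count per kb of mRNA (y axis, over all libraries, no error available) for alternative subunits, grouped by family and coloured by complex. Mbd3 at 322 and Smarca1 at 299 are highest, and Chd5 at 1.21 is barely visible.

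Other subunits of the same complexes gave a like picture. Of 49 further subunits and remodellers listed, 46 were in the table and 45 had a p. Of the 45, the authors' deposited table called 0, and its unadjusted DESeq2 p was under 0.05 for 1 lower and 0 higher genes. The single gene was Actr6, an actin-related subunit of the Srcap complex (unadjusted p = 0.0308, mean count 11.7 in the authors' deposited table) and its reconstructed value of -14.43 ± 6.95 (SE) gives no usable size. The median over 28 well determined genes of this list was -0.07.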

How the data were processed

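Libraries of dorsal pancreas RNA came from 3 knockout and 3 control samples, grouped by title; separate embryos are not tied to samples in the labels, so p-values cover only the spread between libraries. Per the labels' protocols, the RNA was depleted of ribosomal RNA and the libraries were stranded. Per the submitters' processing notes, Trimmomatic, Salmon and DESeq2 were used with GRCm38 (mm10); versions and filters were not stated there.

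The authors deposited 1 table of test results, with the mean normalized count (a signal, averaged by the authors over libraries), the log2 fold change and its error as deposited, and the deposited p-value and adjusted p-value. It holds no per-library values, so the planned count test was replaced by the authors' own calls.

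The deposited fold changes were shrunken: 92.7% lay within 0.1 of 0. Under a Cauchy prior and a quadratic likelihood, each deposited value with its posterior SD gives back the unshrunken value and its SE. The prior scale, 0.310, was chosen to match the most p-values. Of genes with a p, 90.8% had a z within 0.1 of the deposited one, as had all 51 members (largest difference 0.0336). Intervals are at the 95% level.

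Members and lists were chosen with earlier results of these data known. Named genes are Dpy30, all motors, members and accessory genes at an unadjusted p under 0.05, the 2 smallest p of each complex and the highest and lowest mean; other members complete their families. Exons of Arid2, Smarca5, Baz1a, Chd2 and Srcap overlap another gene on the same strand, so their counts are uncertain. Python 3.11.15, scipy 1.17.1 and GENCODE M21 were used.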

Additional observations from a re-analysis of the deposited data

How the results depend on the processing

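The count of 0 called members stayed at 0 with an adjusted p under 0.1, with p adjusted over every gene with a p (smallest member value 0.949) and over genes with a mean count of at least 100 (0.827). Relative to pan-epithelial genes, 10 members were higher at the 5% level (22.7% of the well determined members, beside 15% of all well determined genes) and the median became 0.72, because 0.65 is added to every gene. With a prior scale of 0.248, a value was defined for 9 of the 51 members, with a median of 0.55 and 0 intervals within a 2-fold change. With 0.388 all 51 were defined, with a median of 0.019 and 47 such intervals. The median mismatch in z was then 0.403 and 0.387, against 0.00854 at the best scale. With 0.309 and 0.312, chosen after seeing the data, the counts were 5 and 6, beside 6 as reported. A value was then defined for 48 and 51 members, and 42 and 46 had an SE of at most 1, beside 44 as reported. By coding length, Smarcc2 made up 55.4% of its pair and Gatad2a 71.6% of its own; with no length Gatad2a made up 72.8%. Of 50 alternative values, 43 stayed within the limits set for a move. A value was counted as moved by 1.5 times for a count, by the median SE for the median, and by 10 percentage points for a share. The limit for the median is wide: the median of 0.55 at the prior scale of 0.248 counted as not moved. Leaving out replicates, other normalizations and a filter on counts need per-library values and were not run. No paired analysis was possible because the table holds no values per library. The depth of each library is unknown.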

Other observations

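Core SWI/SNF subunits differed in level per length; Smarce1 and Actl6a were chosen after their values were seen. Smarce1, a DNA-binding core subunit, had a mean of 18.1 normalized counts or 6.20 per kb, and Actl6a, an actin-like core subunit, 92.9 normalized counts or 46.2 per kb. Smarcd1, at 29.4 per kb, lay between them, and Smarcd3, Smarcd2, Smarcc1, Smarcb1 and Smarcc2 lay above them, at 76.5, 81.2, 114, 200 and 222 normalized counts per kb. The reconstructed log2 fold changes of Smarce1 and Actl6a were 0.28 ± 2.28 and -0.43 ± 1.04 (SE). The table pairs each gene with 1 UCSC transcript identifier, and the labels do not state whether a value covers all transcripts of a gene.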
